A study of Triticum aestivum with 6 samples.

Results

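Nitrite reductase (NiR) and uroporphyrinogen-III C-methyltransferase (SUMT, also called siroheme methyltransferase) were followed in wheat roots given abscisic acid (ABA) with or without nitrate. The genes were taken by the protein name that the deposited table pairs with each gene ID, as those whose leading name begins with ferredoxin-nitrite reductase or with uroporphyrinogen-III C-methyltransferase. This gave 6 of the 83219 genes listed, 3 for each enzyme, and all 6 passed the filter on low counts. The NiR genes lie on chromosomes 6A, 6B and 6D and the SUMT genes on 3A, 3B and 3D, as read from their IDs. By this rule each enzyme thus had 1 copy in each subgenome of hexaploid wheat, and copies named otherwise were not sought. The NiR genes were matched to the rice enzyme and the SUMT genes to an enzyme of the red alga Cyanidium caldarium, so these are names by similarity and not curated wheat names.

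RNA-seq libraries came from roots of JW1, which the labels call wild-type wheat, in 2 groups of 3 samples. Every seedling had 3 days of germination, then, with its endosperm taken off, 3 days on 2 mM nitrate and 2 days in solution free of nitrogen. For the last 3 h all received 5 µM ABA, a stress hormone, together with 2 mM KCl in the group 0N+ABA or 2 mM KNO3 in the group 2N+ABA. Effects of nitrate and of its replacement by chloride cannot be told apart. Groups without ABA were not analysed here, so a value below shows the response to nitrate with ABA present and does not show what ABA did to it. Whether a group's 3 samples were grown separately is not stated, so each p-value reflects only how these samples vary, and that variation may be technical.

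In plants, nitrate is first reduced to nitrite in the cytosol by nitrate reductase, and nitrite is then reduced to ammonium inside plastids by NiR. NiR takes its electrons from ferredoxin and holds siroheme, an iron-containing tetrapyrrole, in its active site. SUMT opens the path to siroheme by methylating uroporphyrinogen III, the last intermediate shared with heme and chlorophyll, and sirohydrochlorin ferrochelatase then inserts the iron. Sulfite reductase, an enzyme of sulfur assimilation, is the other plant enzyme that needs siroheme. Nitrite is toxic when it accumulates, and induction of NiR by nitrate is well known in roots of many plants.

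Library totals ran from 16907317 to 17735564 estimated counts. On the first principal component, with 42.1% of the variance, 0N+ABA replicate 2 lay at -1.28. This was away from the other 0N+ABA libraries at -63.8 and -74.1 and nearer to the 2N+ABA libraries at 38.8 to 59.9. On the second, with 25.1%, it lay at -79.0, apart from the libraries of both groups at -17.7 to 47.9. Values without it are therefore given where it bears on a result. Another label of the samples names leaf tissue. Of 121 genes matched to leaf photosynthesis proteins, 53 stayed under 1 TPM (a length-corrected share of the library's transcripts) in every library and 22 were at 0. Their summed level was 188.85 to 290.30 TPM in 0N+ABA and 135.07 to 291.35 TPM in 2N+ABA, with the small subunits of Rubisco under the general name at 10.67 to 49.26 TPM. Of 71 leaf genes tested, 0 rose and 1 fell by edgeR, and their median log2 fold change was -0.25. Summed Casparian strip and CASP-like genes, taken by name as markers of the root endodermis, were at 826 to 1136 TPM. Whether all genes of this list mark the endodermis was not tested. Markers of root hair and epidermis moved with the groups: 13 genes summed to 83.3 to 86.8 TPM in 0N+ABA and to 94.1 to 102.8 TPM in 2N+ABA, without overlap. Of 10 tested, 1 rose by edgeR, and their median log2 fold change was 0.81. The part of leaf, root hair or epidermis content in the results below was not tested, and in bulk RNA fewer cells of a type and less RNA per cell cannot be told apart.

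All 6 genes were higher with nitrate, by 9.48-fold to 24.5-fold, and in none of them did the groups overlap. Each passed edgeR's quasi-likelihood test with Benjamini-Hochberg adjustment over the 53862 genes tested. Of those genes, 2.25% were called in either direction, 1.67% rose and 0.579% fell, and 0.113% rose by at least 10-fold, a size that 5 of the 6 reached. Groups that did not overlap, with 2N+ABA higher, were found in 11.3% of the tested genes. The members' log2 fold changes were between 3.24 and 4.62, where the median over all tested genes was -0.02.

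The NiR gene on 6B, TraesCS6B02G364600, stood at 11.59, 5.58 and 5.83 TPM in 0N+ABA replicates 1, 2 and 3 and at 209.15, 200.78 and 131.45 TPM in the 2N+ABA replicates. Its lowest library with nitrate was thus 11.3 times its highest without. Its log2 fold change was 4.62 (SE 0.337, 95% interval 3.85 to 5.39, adjusted p = 0.000458), and its place among all genes by mean TPM went from 18052 to 928.

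TraesCS6D02G313100, the NiR copy on 6D, had 14.36, 6.04 and 9.0 TPM without nitrate and 180.67, 210.54 and 121.57 TPM with it. The 0N+ABA libraries of this gene were spread widely, with a coefficient of variation of 43.0%, yet all lay far below those with nitrate. Its log2 fold change was 4.19 (SE 0.351, 95% interval 3.39 to 4.99, adjusted p = 0.000916).

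The copy on 6A, TraesCS6A02G333900, was the weakest of the NiR genes in TPM in every library. It had 5.25, 4.38 and 4.58 TPM in 0N+ABA and 91.59, 103.86 and 62.27 TPM in 2N+ABA, and the 0N+ABA values varied by 9.62%. The log2 fold change was 4.24 (SE 0.226, 95% interval 3.73 to 4.76, adjusted p = 9.44e-05).

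SUMT genes were expressed at far lower levels than NiR genes, and rose as well. TraesCS3D02G225500, on 3D, stood at 1.48, 1.47 and 1.40 TPM without nitrate and at 25.93, 27.96 and 19.31 TPM with it. The 0N+ABA replicates were nearly the same, with a coefficient of variation of 3.01%. This gene had the largest SUMT change, a log2 fold change of 4.13 (SE 0.191, 95% interval 3.69 to 4.56, adjusted p = 6.55e-05).

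On 3A, TraesCS3A02G227700 went from 1.20, 1.21 and 1.26 TPM to 15.67, 16.41 and 11.92 TPM, a log2 fold change of 3.63 (SE 0.177, 95% interval 3.23 to 4.04, adjusted p = 8.18e-05). Its baseline was as even as that of the 3D copy. TraesCS3B02G256800, on 3B, had 0.81, 0.80 and 1.47 TPM without nitrate and 9.76, 11.90 and 6.38 TPM with it. Here 0N+ABA replicate 3 was above the other 2 libraries of its group. The log2 fold change was 3.24 (SE 0.314, 95% interval 2.53 to 3.96, adjusted p = 0.00202).

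**Figure D1:**
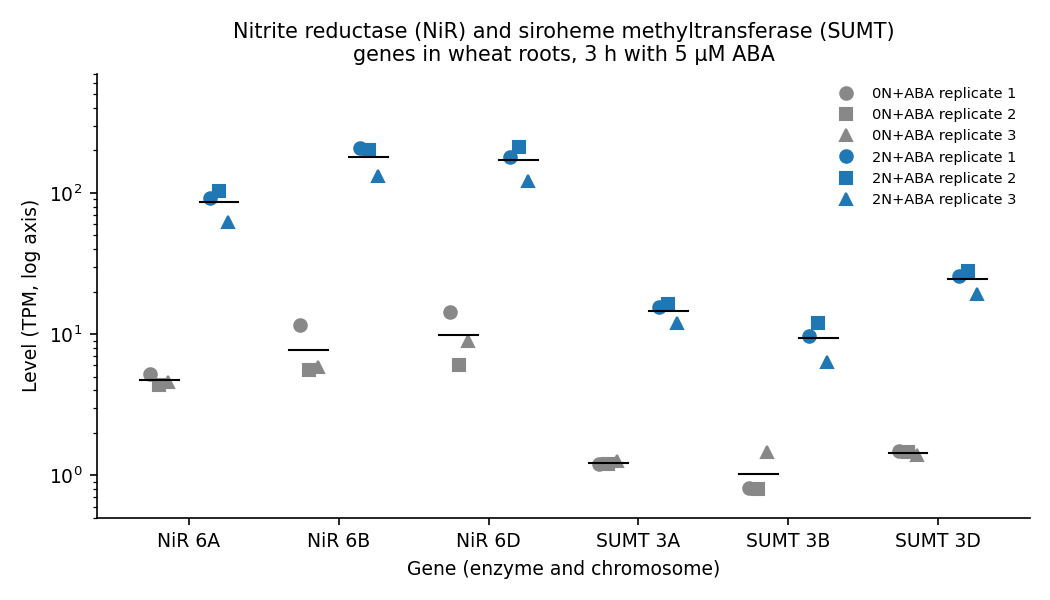
Level of each gene in TPM on a log axis, with a point for each library, its shape giving the replicate, and a line at the mean of 3 libraries. Every gene's 2N+ABA libraries lie above its 0N+ABA libraries, and 2N+ABA replicate 3 is the lowest of its group in all 6 genes.

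In order of mean TPM with nitrate, the NiR genes on 6B and 6D came first at 180.5 ± 42.6 and 171 ± 45.3 TPM (SD, n = 3), and their ranges overlapped. The 6A copy followed at 85.9 ± 21.4 TPM, and then SUMT on 3D (24.4 ± 4.52), 3A (14.7 ± 2.41) and 3B (9.35 ± 2.78 TPM), each apart from the gene above it. Without nitrate, the order was 6D (9.80 ± 4.22), 6B (7.67 ± 3.40) and 6A (4.74 ± 0.456 TPM) for NiR and 3D (1.45 ± 0.0436), 3A (1.22 ± 0.0321) and 3B (1.03 ± 0.384 TPM) for SUMT. The ranges of 6D and 6B overlapped there, as did those of 3A and 3B. TPM divides by a gene's length, and the divisor differed among copies: 1 TPM stood for 52.5 estimated counts in the 3B copy and for 26.3 in the 3D copy. In estimated counts, 3B was above 3A in 5 of the 6 libraries, so the low place of 3B in this order depends on the length correction.

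The estimated counts of single copies were mostly not whole. Of 36 values, 6 genes in 6 libraries, 7 were whole numbers within a tolerance of 1e-06. Summed over the 3 copies of an enzyme, however, the counts came within 0.01 of a whole number in all 12 sums. In 0N+ABA replicate 3, for example, the SUMT copies held 36.00, 73.86 and 35.14 counts, which add up to 145.0, and the NiR copies held 185.37, 188.01 and 324.62, which add up to 698.0. The fractional parts thus cancelled within each set. How many reads were split between copies cannot be read from the table, so the level of a single copy is less certain than the sum.

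With the copies of each enzyme summed to a single feature and all genes fitted again, a step added after seeing the data, neither call was lost. The log2 fold change was 4.35 for NiR (SE 0.307, 95% interval 3.65 to 5.05, adjusted p = 0.000385 by edgeR) and 3.67 for SUMT (SE 0.213, 95% interval 3.18 to 4.15, adjusted p = 0.000171). In reads, NiR held 1123, 599 and 698 counts without nitrate and 17846, 19078 and 11811 with it. For SUMT these sums were 114.0, 116.0 and 145.0 against 1669, 1844 and 1213. SUMT copies without nitrate thus rested on 35 to 73.86 counts each per library, and the NiR copies on 184.84 to 527.76.

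The balance of the copies within an enzyme was compared as each copy's share of the summed TPM in a library. For SUMT, the 3D copy made up 42.4%, 42.2% and 33.9% without nitrate and 50.5%, 49.7% and 51.3% with it. The 3B copy made up 23.2%, 23.0% and 35.6%, and then 19.0%, 21.1% and 16.96%. The mean share of 3D was thus higher by 10.99 percentage points and that of 3B lower by 8.23 points, without overlap of the groups, while 3A differed by -2.77 points with overlap. In NiR, the 6B copy went from 37.1%, 34.9% and 30.0% to 43.4%, 39.0% and 41.7%, higher by 7.35 points without overlap, and 6A and 6D differed by -2.95 and -4.40 points with overlap. An exact two-sided permutation test of 3 against 3 samples cannot go below p = 0.1, and the shares of 3D, 3B and 6B reached that value (p = 0.2 each when adjusted over the 6 shares). None of these shifts therefore passed a threshold of 0.05. The shift of 3B was 4.06 points downward without 0N+ABA replicate 3, the library in which 3B was high, and that of 3D was 8.18 points upward.

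**Figure D2:**
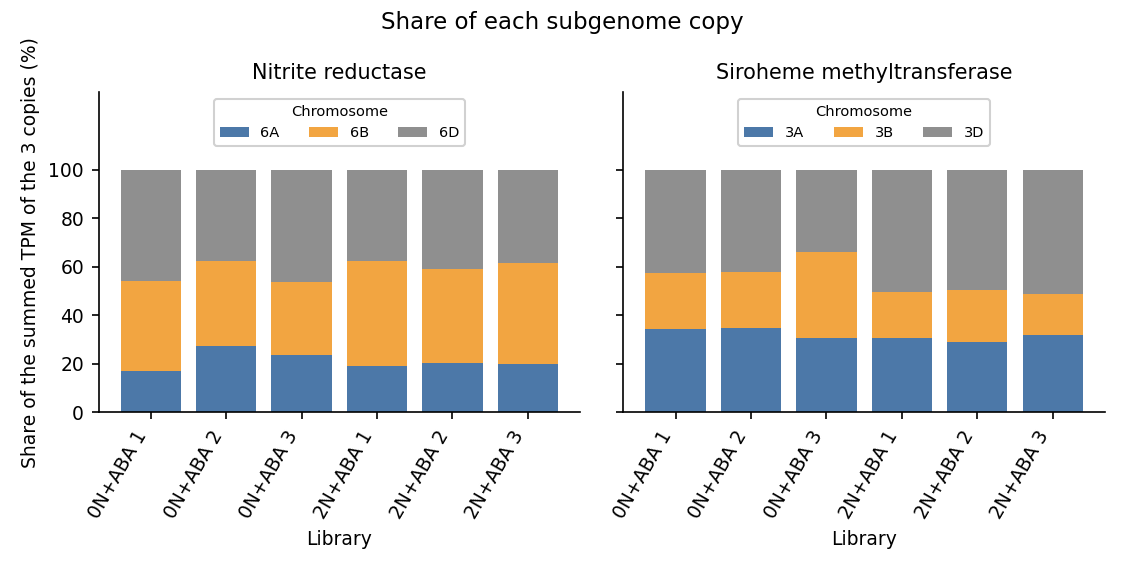
Share of each chromosome's copy in the summed TPM of the 3 copies (percent, stacked), for each library. The SUMT copy on 3D makes up 49.7% to 51.3% in 2N+ABA and 33.9% to 42.4% in 0N+ABA, and the NiR copy on 6B 39.0% to 43.4% against 30.0% to 37.1%.

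The balance was also taken as the log2 ratio of TPM between each pair of copies within a library. Of the 6 ratios, 3 were free of overlap between 0N+ABA and 2N+ABA. For the SUMT copies 3B to 3D the ratio was -0.56 ± 0.545 without nitrate and -1.41 ± 0.183 with it (SD, n = 3), without overlap. Its 0N+ABA values were -0.87, -0.88 and 0.07, and without 0N+ABA replicate 3 the difference between the groups was -0.54 in place of -0.85. The ratio of 3A to 3D was -0.25 ± 0.0814 and -0.73 ± 0.0366, also without overlap, while that of 3A to 3B, at 0.31 ± 0.465 and 0.68 ± 0.219, overlapped. The NiR ratio of 6B to 6D was -0.35 ± 0.258 and 0.09 ± 0.142, without overlap. Those of 6A to 6B, at -0.61 ± 0.458 and -1.07 ± 0.120, and of 6A to 6D, at -0.96 ± 0.494 and -0.99 ± 0.0280, overlapped. The SD was smaller with nitrate in all 6 ratios. Every copy had fewer counts without nitrate, down to 35 in the SUMT copy 3A. Single libraries also stood out there: 6A to 6B was -1.14, -0.35 and -0.35 in 0N+ABA replicates 1, 2 and 3. How far low counts or single libraries set these SDs was not tested. The 95% intervals of the copies' own log2 fold changes overlapped within each enzyme, but they leave out that the copies were measured in the same libraries. The exact test of shares could not go below p = 0.1. Neither can therefore decide whether the copies of an enzyme differed in their response.

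In 2N+ABA replicate 3 the 6 genes stood at 0.589 to 0.743 times the mean of replicates 1 and 2. Over all 898 genes that rose, the median of this ratio was 0.980, and 94 of them (10.5%) were at or under 0.743. Among the 27 genes of the related pathways below that rose, 26 had a ratio under 1, with a median of 0.797. All 6 genes thus lay lower in this library than most genes that rose. Leaf photosynthesis genes summed to 135 TPM in this library, against 291 and 161 TPM in the other 2N+ABA libraries, and their part in this was not tested.

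Without nitrate, 0N+ABA replicate 1 stood out for NiR only in part. The 6B and 6D copies were 2.03 and 1.91 times the mean of the other 0N+ABA libraries there, and the 6A copy was 1.17 times. The SUMT copies 3A and 3D were 0.972 and 1.03 times, and the 3B copy was 0.714 times. In 0N+ABA replicate 2, the library that stood between the groups on the first component, the NiR genes were the lowest of their group. SUMT on 3A and 3D was level with the group there, while SUMT on 3B was 0.702 times the mean of the other 0N+ABA libraries. Without this library, the log2 fold changes were 4.44, 3.94 and 4.20 for NiR on 6B, 6D and 6A and 4.14, 3.64 and 3.11 for SUMT on 3D, 3A and 3B, and all 6 passed the test.

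The sum of NiR was 8.94, 4.6 and 4.70 times the sum of SUMT, in TPM, in the 0N+ABA libraries and 9.37, 9.16 and 8.38 times with nitrate. The groups overlapped in this ratio, since 0N+ABA replicate 1 was within the range of the libraries with nitrate. The lower ratios of 0N+ABA replicates 2 and 3 lay outside that range.

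Nitrate reductase, which supplies the nitrite, was also higher with nitrate. Its 9 genes added up to 96.32, 50.73 and 84.09 TPM without nitrate and 331.58, 392.37 and 215.73 TPM with it. NiR was accordingly at 0.324, 0.315 and 0.231 times nitrate reductase in 0N+ABA and at 1.45, 1.31 and 1.46 times in 2N+ABA, so the order of the enzymes by transcript level turned over. Of 7 nitrate reductase genes tested, 6 rose and 0 fell by edgeR (0 below zero with an unadjusted p under 0.05, and 0 falls by DESeq2 and limma-voom), and their median change was 2.08 on the log2 scale. TraesCS6A02G326200 rose by 4.58 on the log2 scale (SE 0.344, adjusted p = 0.000535), while TraesCS6B02G356800 rose by 2.08 (SE 0.198, adjusted p = 0.00191) and TraesCS6A02G017500 by 2.91 (SE 0.231, adjusted p = 0.000696). TraesCS7A02G078500 rose by 3.34 (adjusted p = 0.00747) at under 1 TPM. The remaining tested gene, TraesCS6D02G020700, had a log2 fold change of 1.65 (adjusted p = 0.0693). The rises numbered 4 to 7 when single libraries were left out.

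**Figure D3:**
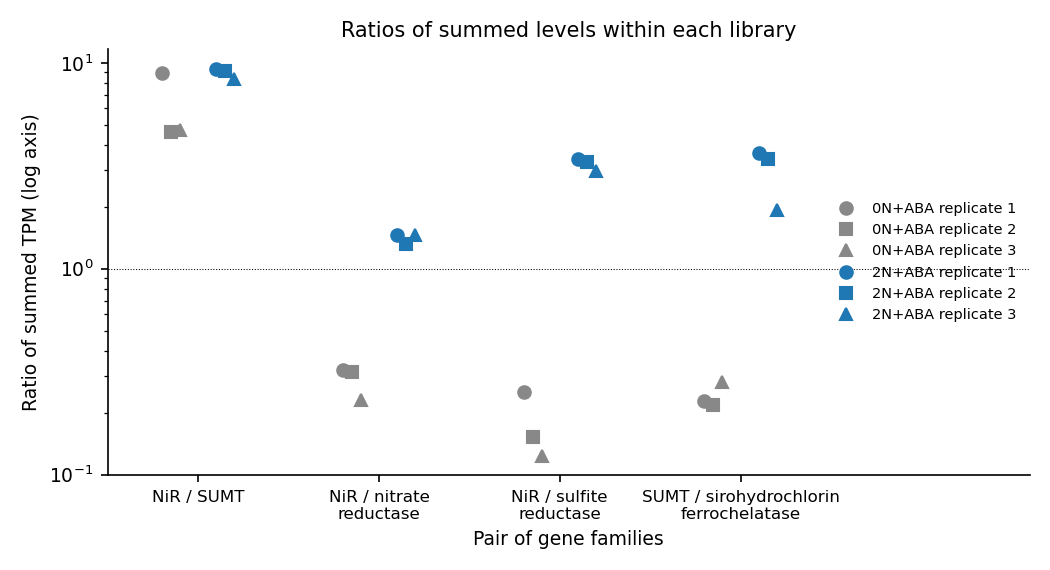
Ratio of summed TPM between gene families within each library, on a log axis, with the dotted line at equal levels. NiR is below nitrate reductase and sulfite reductase in every 0N+ABA library and above them in every 2N+ABA library, and the ratio of NiR to SUMT overlaps between the groups.

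Of the enzymes on either side of SUMT in tetrapyrrole synthesis, no gene passed the test. Upstream, from glutamyl-tRNA reductase, which commits glutamate to tetrapyrroles, to uroporphyrinogen-III synthase, which makes the substrate of SUMT, 25 genes were tested. Of these, 3 were named for a binding protein of glutamyl-tRNA reductase and not for an enzyme. None of the 25 was called by edgeR, DESeq2 or limma-voom, and 0 reached an unadjusted p under 0.05. Their log2 fold changes ran from -0.49 to 0.29 (median -0.07), and no 95% interval went above 0.95. Those with the smallest p were the uroporphyrinogen-III synthase genes TraesCS4B02G302400 and TraesCS4D02G300900 (-0.49 each, adjusted p = 0.381 and 0.433), a delta-aminolevulinic acid dehydratase gene (TraesCS7A02G415000, 0.19, adjusted p = 0.473) and a porphobilinogen deaminase gene (TraesCS6A02G143300, 0.29, adjusted p = 0.478).

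Downstream, sirohydrochlorin ferrochelatase summed to 15.35, 15.90 and 14.62 TPM without nitrate and to 14.07, 16.41 and 19.42 TPM with it. The groups overlapped. Of its 6 tested genes none was called by edgeR, DESeq2 or limma-voom, and 0 reached an unadjusted p under 0.05. Log2 fold changes ran from -0.53 in TraesCS6A02G167400 (adjusted p = 0.498) to 0.58 in TraesCS5A02G063800 (adjusted p = 0.525), and the highest upper bound of a 95% interval was 1.47, under the lowest lower bound of the members, 2.53. Among the more abundant copies, TraesCS5B02G068700 and TraesCS5D02G074800 stood at 0.25 and 0.31 (adjusted p = 0.525 and 0.674). SUMT was therefore at 0.227, 0.219 and 0.282 times this enzyme's summed TPM in 0N+ABA and at 3.65, 3.43 and 1.94 times in 2N+ABA.

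The other branch from uroporphyrinogen III, to heme and chlorophyll, gave 0 calls among 30 tested genes by edgeR, DESeq2 and limma-voom, with 1 gene in each direction at an unadjusted p under 0.05. The median change was -0.14 on the log2 scale. TraesCS2D02G136200, for the ChlH subunit of magnesium chelatase, had the smallest p (log2 fold change 0.74, 95% interval 0.26 to 1.22, adjusted p = 0.125). The ChlI and ChlD genes TraesCS7B02G382800 and TraesCS5B02G477800 stood at -0.37 and -0.53 (adjusted p = 0.247 and 0.342), and the coproporphyrinogen oxidase gene TraesCS6B02G243500 at -0.65 (adjusted p = 0.341). Without 0N+ABA replicate 2, 2 genes of this branch fell, the mitochondrial protoporphyrinogen oxidase gene TraesCS2A02G347900 by 0.74 and the coproporphyrinogen oxidase gene TraesCS2A02G426900 by 0.90 on the log2 scale (adjusted p = 0.0242 and 0.0337).

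Sulfite reductase, which also carries siroheme and takes electrons from ferredoxin, was at 124.09, 105.49 and 156.85 TPM without nitrate and 140.96, 156.02 and 105.56 TPM with it, summed over 3 genes. The groups overlapped fully. Log2 fold changes were 0.16 in TraesCS1A02G323400, 0.10 in TraesCS1B02G336300 and 0.11 in TraesCS1D02G324200 (adjusted p = 0.710, 0.834 and 0.878 by edgeR), none reached an unadjusted p under 0.05 or was called by DESeq2 or limma-voom, and the 95% intervals lay between -0.47 and 0.69. The summed TPM of NiR was 0.251, 0.152 and 0.124 times that of sulfite reductase in 0N+ABA and 3.42, 3.30 and 2.99 times in 2N+ABA. In these roots the more abundant siroheme enzyme transcript was thus sulfite reductase without nitrate and NiR with it.

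**Figure D4:**
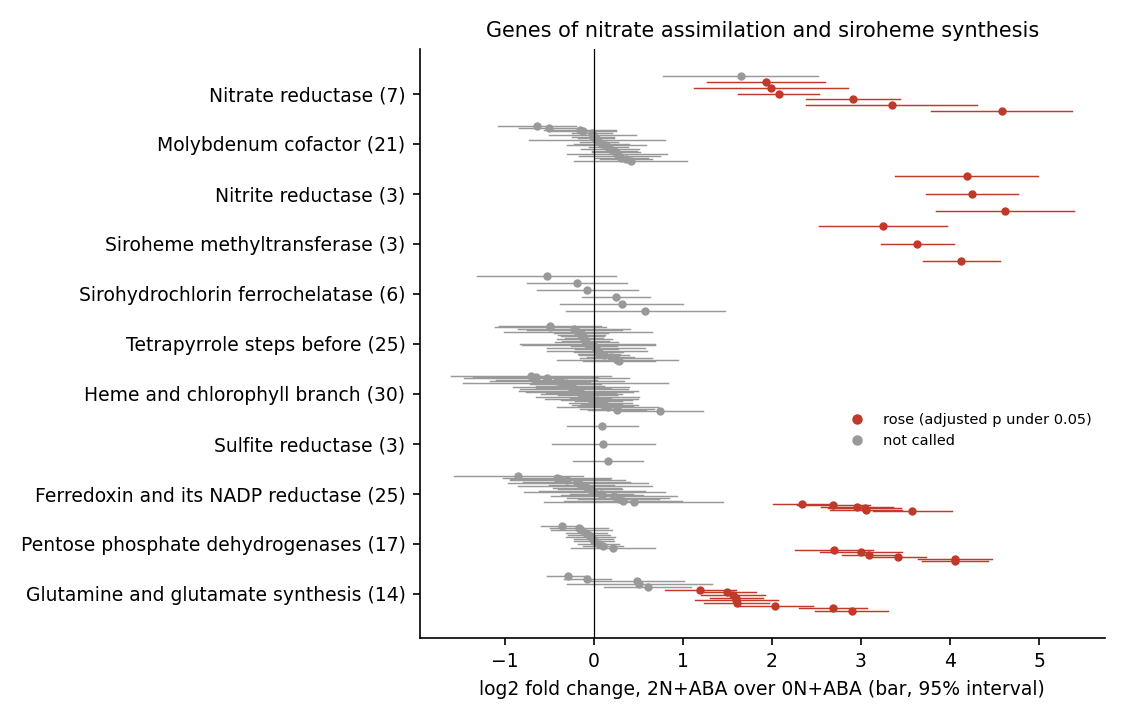
Log2 fold change of each tested gene (points, with 95% intervals as bars) by enzyme or pathway, with the number of genes in brackets. NiR and SUMT lie between 3.24 and 4.62, while the 25 genes before SUMT, the 6 sirohydrochlorin ferrochelatase genes, the 30 of the heme and chlorophyll branch, the 3 of sulfite reductase and the 21 for the molybdenum cofactor hold no gene that was called.

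Nitrate reductase needs a cofactor of its own. Of 21 tested genes for the molybdenum cofactor, 0 were called by edgeR, DESeq2 or limma-voom, and 2 in each direction had an unadjusted p under 0.05. The extremes by p were the molybdenum cofactor sulfurase genes TraesCS7B02G372400 and TraesCS7D02G457800 (-0.51 and -0.64, adjusted p = 0.125 and 0.141), a molybdopterin synthase gene (TraesCS5A02G191300, 0.36, adjusted p = 0.211) and a GTP 3',8-cyclase gene (TraesCS5B02G066700, 0.31, adjusted p = 0.289).

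Carriers of electrons to NiR rose in part. In roots, NADPH from the plastid pentose phosphate pathway reduces ferredoxin through a root form of ferredoxin-NADP reductase. Of 25 tested genes for ferredoxins and their reductases, 6 rose and 0 fell by edgeR (1 lower at an unadjusted p under 0.05, and 0 falls by DESeq2 and limma-voom), and the median was 0.09. The 6 were the root reductase genes, summing to 98.2 ± 4.36 TPM without and 733 ± 135 TPM with nitrate (SD, n = 3), and the ferredoxin-6 genes of chromosome group 1. Among the former were TraesCS5D02G431300 and TraesCS5A02G423000, which rose by 3.58 and 2.95 on the log2 scale (adjusted p = 0.000103 and 0.000179), and among the latter TraesCS1A02G276300 and TraesCS1B02G285500, by 3.06 and 3.04 (adjusted p = 0.000158 and 0.000171). The sum of ferredoxin-3 was 133 ± 31.2 and 128 ± 22.6 TPM.

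Of 17 tested pentose phosphate dehydrogenase genes, 6 rose and 0 fell by edgeR (1 lower at an unadjusted p under 0.05, and 0 falls by DESeq2 and limma-voom). These were the genes of plastid 6-phosphogluconate dehydrogenase 2, at 24.5 ± 2.69 and 327 ± 35.4 TPM in sum, and of plastid glucose-6-phosphate dehydrogenase 2, at 21.0 ± 2.73 and 150 ± 26.8 TPM. TraesCS1B02G373600, TraesCS1D02G361400 and TraesCS1A02G357200 of the former rose by 3.42, 4.06 and 4.05 on the log2 scale (adjusted p = 3.87e-05, 3.87e-05 and 5.73e-05), and TraesCS2A02G067800 of the latter by 3.09 (adjusted p = 5.13e-05). Cytosolic 6-phosphogluconate dehydrogenase 1 summed to 318 ± 7.65 and 313 ± 11.4 TPM, and none of its 6 tested genes was called.

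Enzymes of glutamine and glutamate synthesis, which follow NiR, rose in part. Of 14 tested genes for glutamine synthetase and ferredoxin-dependent glutamate synthase, 9 rose and 0 fell by edgeR (1 lower at an unadjusted p under 0.05, and 0 falls by DESeq2 and limma-voom), with a median of 1.53 on the log2 scale and none above 2.90. The plastid glutamine synthetase genes TraesCS2A02G500400, TraesCS2D02G500600 and TraesCS2B02G528300 rose by 2.90, 2.68 and 2.04 (adjusted p = 0.000194, 0.000211 and 0.00137), and the glutamate synthase gene TraesCS2B02G152900 by 1.60 (adjusted p = 0.000779). All 3 genes of cytosolic glutamine synthetase 1-2 rose as well, by 1.19 to 1.61. They summed to 761 ± 139 TPM without and 1965 ± 256 TPM with nitrate (SD, n = 3). The plastid form was at 63.35 ± 11.8 and 358 ± 42.2 TPM. For 12 of the 14 genes, the upper bound of the 95% interval was under 2.53, the lowest lower bound of a NiR or SUMT gene. A list for nitrite transporters matched 0 protein names.

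Genes whose profile was most like that of NiR or SUMT were sought among 39711 other genes with a described protein and a mean of at least 1 CPM (counts scaled to library size). Likeness was the root mean square difference of log2 CPM over the 6 samples, after centring each gene. The prior count added to the counts sets part of this measure where a gene has few reads. Closest to NiR was the nitrate reductase gene TraesCS6A02G326200 (0.142), on the same chromosome as the 6A copy of NiR, followed by a tyrosine-sulfated glycopeptide receptor (TraesCS7A02G435000, 0.235) and 6-phosphogluconate dehydrogenase 2 (TraesCS1A02G357200, 0.248). Of these, the receptor had 4 to 5 counts per library in 0N+ABA. A carbonic anhydrase (TraesCS7A02G454400) was at 0.307, with 9 to 15 counts per library in 0N+ABA. In the fourth place, at 0.255, the rule gave a zinc finger protein ZAT12 (TraesCS1B02G053000), but it had no count in 0N+ABA, so its distance and place are set by the prior count and not by a measured fold. It passed the mean of 1 CPM through 2N+ABA alone, and was at least 12.1-fold higher there against a floor of 3 counts per library. The receptor and the carbonic anhydrase had means of 0.251 and 0.655 CPM in 0N+ABA and 6.16 and 23.5 CPM in 2N+ABA. They too passed the mean of 1 CPM only through 2N+ABA, and the prior count sets part of their distances. The NiR copies themselves were at 0.144 to 0.195 from their own mean, so the nitrate reductase gene, at 0.142, was about as near to it as the nearest copy. That gene was the closest of 39711 searched, and whether its distance differs from those of the copies was not tested.

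Closest to SUMT were genes for NAR2.1, the partner protein of high-affinity nitrate transporters (TraesCS6A02G210000, 0.0960, and TraesCS6D02G193200, 0.221), the root ferredoxin-NADP reductase TraesCS5D02G431300 (0.113) and the 6-phosphogluconate dehydrogenase genes TraesCS1B02G373600 and TraesCS1D02G361400 (0.165 and 0.250). The SUMT copies were at 0.0907 to 0.284 from their mean. Of the NiR genes, the 6A copy was the nearest to SUMT at 0.329, and of the SUMT genes, the 3D copy was the nearest to NiR at 0.292. All of these genes were lower in 2N+ABA replicate 3 than in the other 2N+ABA libraries. Likeness was taken over these same libraries, so the rule favours genes that share this trait. Of all 898 genes that rose, 53.0% were below the mean of 2N+ABA replicates 1 and 2 in that library.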

How the data were processed

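The values come from RNA-seq of poly(A)-selected, randomly primed and PCR-amplified RNA, per the labels' protocols, which give neither strand nor molecular identifiers. HISAT and Bowtie2 are named per the submitters' processing notes, while the counter, build and annotation behind the table were not given in these sources. Estimated counts per gene, not normalized, were deposited by the authors beside TPM, per the file headers. The FPKM values the authors deposited and their normalized counts, a signal scaled per sample, per the file headers, were not used. Another 2 columns, means of groups outside the 6 samples, were also not used. Whole numbers made up 55.2% to 56.3% of the estimated counts of a library. Of the gene IDs, 0 matched the RefSeq gene table at hand, so no coordinates or sequences are given.

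After rounding to whole numbers, the counts went into edgeR 4.0.16 under R 4.3.3 (filterByExpr, TMM, glmQLFit and glmQLFTest, no covariate), with Benjamini-Hochberg adjustment over 53862 genes and a threshold of 0.05. Standard errors were derived from the F statistic. Levels between genes are in TPM. The fit was also run on simulated counts with changes smaller than those of the members, and the outcome is not given here. DESeq2 1.42.0, limma-voom (limma 3.58.1), limma on log2(TPM + 0.1), RLE factors, no filter, a replicate block and leaving out each library were the alternatives. Named genes were all 6 members, up to 4 genes of each related list by smallest p, and the 5 most alike genes for each enzyme, with a prior count of 2 in log2 CPM. Others named fell outside this rule and were chosen after their values were seen: 1 nitrate reductase gene that did not pass and 2 heme branch genes that fell without a library. In the nitrite transporter list, the short pattern that also matched nitrate names was dropped. A list of phloem markers matched 0 genes, and 26 root cap and root genes summed to 77.5 to 109 TPM in 0N+ABA and 78.2 to 96.8 TPM in 2N+ABA. The members and lists were chosen with earlier results of these data known.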

Additional observations from a re-analysis of the deposited data

How the results depend on the processing

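All 6 NiR and SUMT genes rose under each of the 12 alternatives, with log2 fold changes from 3.00 to 5.03 and a largest adjusted p of 0.0183 by any of them, that of the SUMT copy on 3B. The number of genes that differed over the whole table was 1210 and depended on the libraries: leaving out single libraries gave 283 to 4607, the latter without 0N+ABA replicate 2, and DESeq2 gave 2262. With a replicate block it was 723. The replicate numbers were not taken as pairs in the reported fit, and the block was set as an alternative. Same-numbered samples had correlations of 0.0757, -0.229 and -0.217 in their deviations from the group means. The best partner of 0N+ABA replicates 1, 2 and 3 was 2N+ABA replicate 2, 3 and 2. With 3 libraries per group, these correlations cannot decide whether the samples were paired. The splits of that count into higher and lower genes were 898 and 312 in the reported fit, 588 and 135 with the block, and 2852 and 1755 without 0N+ABA replicate 2.

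The changes in copy shares kept their direction in estimated counts and with each library left out, at -8.23 points (-10.4 to -4.06) for 3B, 10.99 points (8.18 to 12.4) for 3D and 7.35 points (5.36 to 8.91) for 6B. Of the 3 sulfite reductase genes, none called in any setting, 2 changed sign: with single libraries left out, TraesCS1D02G324200 ran from -0.11 (without 2N+ABA replicate 2) to 0.31, with -0.08 when 0N+ABA replicate 2 was left out, and TraesCS1B02G336300 from -0.014 (without 2N+ABA replicate 2) to 0.25. The cause was not tested. The summed sets gave log2 fold changes of 4.17 to 4.66 for NiR and 3.50 to 3.84 for SUMT with single libraries left out. Of the ratios between copies, recomputed with single libraries left out after seeing the data, 6A to 6D, near zero as reported, changed sign and ran from -0.27 to 0.22 (without 0N+ABA replicates 1 and 2), 6A to 6B was -0.72 in place of -0.46 without 0N+ABA replicate 1, and 3A to 3B was 0.10 in place of 0.37 without 0N+ABA replicate 3. SUMT copies had 35 to 74 counts per library without nitrate, and whether depth limits them was not tested.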
